A study of Mus musculus with 6 samples.

Results

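The loop of Henle, the distal tubule and the collecting duct are marked by genes that were followed here in chromatin of the S1 segment, the first stretch of the proximal tubule. These are 10 of the 21938 protein-coding genes of the annotation: Umod, Slc12a1 and Kcnj1 of the thick ascending limb of the loop of Henle, Slc12a3, Calb1 and Pvalb of the distal tubule, and Aqp2, Scnn1a, Scnn1b and Scnn1g of the collecting duct. They were chosen by name, as textbook markers of those segments, and each was given the open regions whose summit lay in the gene or within 20 kb of either end. That rule took 42 of the 99340 open regions found in the study.

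The regions come from ATAC-seq, which reads where a transposase can reach DNA that is not packed into nucleosomes. Each of the 6 libraries was made from 3 proximal tubule pieces dissected by hand from the kidney of wild-type male C57BL/6 mice of Taconic stock, operated on at 7 weeks of age. The Sham group, 3 libraries, was taken 24 h after a sham operation, and the UNx group, also 3 libraries, 24 h after 1 kidney had been removed by surgery (unilateral nephrectomy). The comparison asks how open chromatin of the S1 segment differs between the 2 operations. Whether the libraries are from separate mice is not given in the sources used here, so every p-value measures only the spread between these libraries, which may be technical.

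The nephron and the collecting duct form a tube of successive cell types that share some transcription factors and differ in their transporters. The thick ascending limb takes up sodium, potassium and chloride and returns potassium to the lumen, the distal convoluted tubule takes up sodium with chloride and also handles calcium and magnesium, and the collecting duct sets the final sodium and water content of urine under aldosterone and vasopressin. Proximal tubule cells of the S1 segment reabsorb glucose, amino acids, phosphate and bicarbonate and are not known for any of these distal transporters. An open promoter is a place where a gene can be transcribed, but it is not a measure of transcription.

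The DNA on which the main contrasts rest is given here, read from GRCm38. The first set shows the 250 bases before the start of 5 genes, from the RefSeq promoter table of GRCm38.p6, written in the direction of transcription: the promoters of Umod and Scnn1g were open in every library, while those of Scnn1b, Slc12a3 and Aqp2 were open in none. Capitals mark an HNF1 core string, GTTAAT, in Umod and a TFAP2 string, GCCNNNGGC, in Slc12a3. The TFAP2 string is in 16.6% of RefSeq promoters. It is also in the open Umod promoter, past the printed bases, and in the closed Pvalb promoters. By symbol, 8 of the 10 genes matched that table; Calb1 and Scnn1a did not.
Umod promoter, chr7:119479263-119479512, minus strand: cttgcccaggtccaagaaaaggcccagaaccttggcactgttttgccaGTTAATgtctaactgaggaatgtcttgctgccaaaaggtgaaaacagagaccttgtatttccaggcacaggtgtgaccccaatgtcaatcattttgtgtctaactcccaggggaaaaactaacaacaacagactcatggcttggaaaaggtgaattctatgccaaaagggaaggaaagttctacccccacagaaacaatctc
Scnn1g promoter, chr7:121734229-121734478, plus strand: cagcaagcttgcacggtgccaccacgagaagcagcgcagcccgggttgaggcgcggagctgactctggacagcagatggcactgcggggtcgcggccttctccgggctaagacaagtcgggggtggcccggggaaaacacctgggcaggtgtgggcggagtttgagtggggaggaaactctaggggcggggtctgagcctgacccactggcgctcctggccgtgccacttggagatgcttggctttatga
Scnn1b promoter, chr7:121864788-121865037, plus strand: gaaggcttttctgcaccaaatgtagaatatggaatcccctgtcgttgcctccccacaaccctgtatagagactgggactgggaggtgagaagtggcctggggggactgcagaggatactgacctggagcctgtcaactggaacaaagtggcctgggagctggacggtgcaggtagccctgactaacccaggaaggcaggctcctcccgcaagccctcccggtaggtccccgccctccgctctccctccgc
Slc12a3 promoter, chr8:94328958-94329207, plus strand: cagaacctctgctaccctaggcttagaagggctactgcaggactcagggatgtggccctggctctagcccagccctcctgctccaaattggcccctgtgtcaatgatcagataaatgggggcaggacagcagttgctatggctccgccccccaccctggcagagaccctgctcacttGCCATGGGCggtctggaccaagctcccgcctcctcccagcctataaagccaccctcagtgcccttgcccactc
Aqp2 promoter, chr15:99578806-99579055, plus strand: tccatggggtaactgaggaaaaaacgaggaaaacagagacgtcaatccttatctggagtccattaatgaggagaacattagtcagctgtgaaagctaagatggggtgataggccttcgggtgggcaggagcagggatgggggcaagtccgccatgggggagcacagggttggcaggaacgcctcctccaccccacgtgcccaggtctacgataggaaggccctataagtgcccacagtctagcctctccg

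The second set shows 100 bases on either side of the strongest summit of 4 open regions, on the plus strand of GRCm38. They are the Slc12a1 promoter region and a region downstream of Kcnj1, the promoter of largest difference between the operations among the open ones and the region of largest difference among the tested regions of the 10 genes, the intron region of Kcnj1 that differed in the opposite direction, and the strongest region inside Slc12a3, whose own promoter was closed. Capitals mark 2 copies of a CTCF core string (CCA, any 2 bases, AG, any 2 bases, GG) downstream of Kcnj1 and an AP-1 string, TGANTCA, in Slc12a3. The AP-1 string is in 7.23% of all tested regions and in 2 of the 34 tested regions of the 10 genes (5.88%).
Slc12a1 promoter region, chr2:125151706-125151906, plus strand: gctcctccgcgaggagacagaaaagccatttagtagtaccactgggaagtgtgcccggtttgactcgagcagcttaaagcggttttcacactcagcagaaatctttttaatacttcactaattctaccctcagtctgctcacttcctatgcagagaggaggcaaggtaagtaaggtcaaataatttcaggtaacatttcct
Kcnj1 intron region, chr9:32377033-32377233, plus strand: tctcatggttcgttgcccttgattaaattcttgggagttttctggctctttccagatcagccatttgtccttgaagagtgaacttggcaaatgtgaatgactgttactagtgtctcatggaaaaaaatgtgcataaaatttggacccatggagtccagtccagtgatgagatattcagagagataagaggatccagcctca
Kcnj1 downstream region, chr9:32405375-32405575, plus strand: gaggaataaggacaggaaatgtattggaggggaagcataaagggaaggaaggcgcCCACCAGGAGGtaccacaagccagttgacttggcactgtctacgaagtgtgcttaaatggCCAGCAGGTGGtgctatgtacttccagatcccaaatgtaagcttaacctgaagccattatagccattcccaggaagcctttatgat
Slc12a3 intron region, chr8:94363976-94364176, plus strand: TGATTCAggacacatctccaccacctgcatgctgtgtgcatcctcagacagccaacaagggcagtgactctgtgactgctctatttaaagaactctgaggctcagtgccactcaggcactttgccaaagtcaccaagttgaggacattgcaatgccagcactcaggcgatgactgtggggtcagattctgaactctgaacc

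The authors called peaks in each library separately, and the lists held 77355 to 100999 peaks. To compare them, only the 77355 strongest peaks of a list were kept, and these were ranked as percentiles of their own list by −log10 q, so that values near 100 are the strongest peaks and 0 means that a region was not among those kept. The lists differ in strength, with a median −log10 q between 12.1 in Sham 2 and 26.5 in UNx 3, and hold no read counts, so the depth behind a rank is unknown and no interval that needs it is given. All 14 S1 markers, among them the glucose transporter gene Slc5a2 and the endocytic receptor gene Lrp2, had their promoter open in all 6 lists. Of 14 podocyte, endothelial, stromal and immune markers, 3 were open in all 6 lists (Podxl, Wt1 and Col1a1) and 4 in none (Acta2, Csf1r, Pdgfrb and Ptprc), and the mean percentile over the 14 was 15.4 to 16.6 in Sham and 12.6 to 14.8 in UNx. The podocyte gene Nphs1 ranked at 12.8 to 32.6 in Sham and at 24.4, 47.0 and 0 in UNx. In tubule pieces, fewer cells of a type and less open chromatin per cell cannot be told apart.

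The promoters of the 10 genes fell into 3 states. A promoter region here is the strongest region with its summit within 1 kb of an annotated start of the gene, called open when it was in all 6 lists, closed when it was in 0 and intermittent otherwise. Umod, Slc12a1, Calb1 and Scnn1g were open, Scnn1a and Kcnj1 were intermittent, and Slc12a3, Pvalb, Aqp2 and Scnn1b were closed. Each segment therefore had both open or intermittent and closed genes, except the thick limb, where no promoter was closed. From the Sham lists alone the same 4 genes were open, and Kcnj1 joined the closed ones. Over all protein-coding genes, 57.2% of promoters were open (12539 genes) and 36.6% closed (8031 genes), against 4 and 4 of the 10. The median percentile of the 4 open promoters was 65.3 in Sham and 67.7 in UNx, against 88.0 and 87.3 over all open coding promoters. Umod, Slc12a1 and Calb1 were below those medians in both groups, while Scnn1g averaged 93.0 in Sham and 86.8 in UNx.

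**Figure D1:**
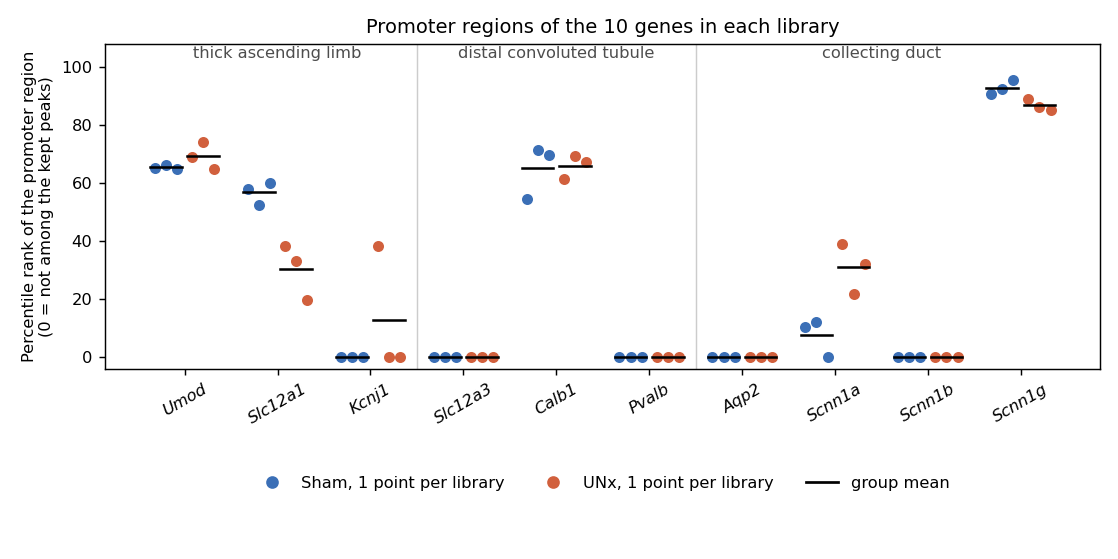
Percentile rank of the promoter region (vertical axis, 0 for a region not among the kept peaks) of each of the 10 genes, with 1 point per library, Sham and UNx side by side and a line at each group's mean. Scnn1g sits highest, at 85.4 to 95.7, the 3 UNx points of Slc12a1 lie below its 3 Sham points, and Slc12a3, Pvalb, Aqp2 and Scnn1b are at 0 in every library.

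Scnn1g, which encodes the gamma subunit of the epithelial sodium channel, had the strongest promoter of the 10. Its region, chr7:121734095-121734837, had its summit 199 bp before the start and ranked at the 90.8, 92.4 and 95.7 percentile in Sham and at 89.0, 86.1 and 85.4 in UNx. All 3 UNx libraries were below all 3 Sham libraries. The means were 93.0 ± 2.47 and 86.8 ± 1.89 (SD, n = 3 each), a difference of −6.15 with SE 2.21 that did not pass the test (limma, adjusted p = 0.150). This was also the only open region in the gene and its flanks, a pattern shared by 441 of the 12539 open coding genes (3.52%). The 300 bases around its start hold 64.7% G and C and 18 CpG dinucleotides, against medians of 52.7% and 7 over 32817 RefSeq promoters.

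Scnn1b, the beta subunit gene, lies on the same chromosome and stood at the other end. No region was found in the gene or its flanks among the kept peaks of any of the 6 lists, which was also true of 3743 coding genes (17.1%). Among all the peaks that the authors deposited, its window held 1 peak each in Sham 3, UNx 1 and UNx 2, with a −log10 q of 1.54, 2.61 and 5.30, none of them within 1 kb of the start. The Scnn1b promoter is GC-rich too, at 61.7% G and C with 10 CpG dinucleotides.

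Scnn1a, the alpha subunit gene, was between those. Its promoter region, chr6:125321029-125322025, had its strongest summit, that of UNx 1, 41 bp before the nearest of 4 annotated starts, and the summits of the 5 lists that held it spread over 410 bp. It ranked at 10.5, 12.3 and 0 in Sham and at 39.2, 21.6 and 32.2 in UNx. Every UNx library was above every Sham library, with means of 31.0 ± 8.84 and 7.62 ± 6.65 (SD, n = 3 each). Sham 3 was the list without the region among its kept peaks. The difference of 23.4 had SE 10.4 and did not pass the test (limma, adjusted p = 0.235). When all deposited peaks were used, the region was in all 6 lists, so Scnn1a then counted as open. The deposited peak of Sham 3 had a −log10 q of 5.89, under the 6.35 at which that list was cut. That value is above the 3.79 of the Sham 2 peak, which was kept, so the 0 of Sham 3 comes from the cut.

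Umod encodes uromodulin, the most abundant protein of normal urine, made by the thick ascending limb. The promoter region, chr7:119479074-119479962, had its summit 229 bp before the nearest annotated start and the 6 libraries placed that summit within 31 bp. It ranked at 65.1, 66.2 and 65.0 in Sham and at 68.9, 74.2 and 65.0 in UNx, with −log10 q between 20.1 and 70.5 in the deposited lists. The groups overlapped, and the difference of 3.91 (SE 5.5) did not pass the test (limma, adjusted p = 0.750). The HNF1 core string printed in capitals starts at position −202 from the RefSeq start, within 100 bases of the summit. That string, searched on both strands and chosen after the values were seen, is in 7.1% of RefSeq promoters and in 11.9% of tested regions. Of the 34 tested member regions, 2 (5.88%) hold it. The Umod promoter holds 0 CpG dinucleotides in 300 bases and 47.3% G and C.

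Slc12a1 encodes the sodium-potassium-chloride cotransporter NKCC2, the target of loop diuretics. Its promoter region, chr2:125151579-125152716, is wide and its strongest summit lay 699 bp before the start, so the window printed above is upstream of the RefSeq promoter table's 300 bases. It ranked at 57.9, 52.4 and 60.2 in Sham and at 38.2, 33.1 and 19.7 in UNx. All UNx libraries were below all Sham libraries, with means of 30.4 ± 9.55 and 56.9 ± 4.0 (SD, n = 3 each), and the summit position varied by 255 bp between libraries. The difference of −26.5 (SE 8.98) was the largest of the open promoters and did not pass the test (limma, unadjusted p = 0.00850, adjusted p = 0.132). In the deposited lists the −log10 q was 33.3, 13 and 35.7 in Sham and 13.8, 19.3 and 14.9 in UNx, and on that scale, which also follows the strength of each list, the groups overlap.

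The coding promoters most like it over the 6 libraries, by Euclidean distance among 13906 promoters in at least 1 list, were those of Lgi4 (14.3), Cpb2 (17.7) and Zscan18 (18.6). The promoter of Lgi4 ranked at 57.1, 48.4 and 67.1 in Sham and at 40.8, 42.1 and 12.5 in UNx. None of the 3 is a thick limb gene of the lists used here.

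Calb1 encodes calbindin, a calcium-binding protein of distal tubule cytosol. The promoter region, chr4:15881029-15881591, had its summit 63 bp after the start, in the annotated untranslated part of an exon. It ranked at 54.6, 71.5 and 69.6 in Sham and at 61.3, 69.5 and 67.3 in UNx, so the groups overlapped. The difference was 0.82 with SE 6.23 (limma, adjusted p = 0.963).

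Kcnj1 encodes the potassium channel ROMK, which returns potassium to the lumen of the thick limb and collecting duct. A promoter region was found in 1 list only, UNx 1, at the 38.4 percentile and 75 bp before the second of 3 annotated starts. The other 5 lists had none, also among all deposited peaks. UNx 1 held 3 of the 5 member regions found in a single list and UNx 3 the other two, while over all 16197 regions found in a single list UNx 1 held 15.6% and UNx 3 23.9%. Besides the Kcnj1 promoter, the member regions found only in UNx 1 lay near Umod, at percentiles 0.146 and 0.145, among the weakest kept peaks. The member regions found only in UNx 3 ranked at 2.88 and 14.5. UNx 1 also held 4 of the 5 promoters of other loop, distal and collecting duct genes found in a single list. They were Cldn16 and Cldn19, tight junction genes of the thick limb, Irx1, and Atp6v1b1, a proton pump subunit of intercalated cells. In that order they ranked at 4.49, 7.16, 3.18 and 39.4. Over all coding genes UNx 1 held 26.3% of the 346 promoters found in a single list, close to the 25.7% held by Sham 2. How UNx 1 differs as a dissection or a library was not tested.

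**Figure D2:**
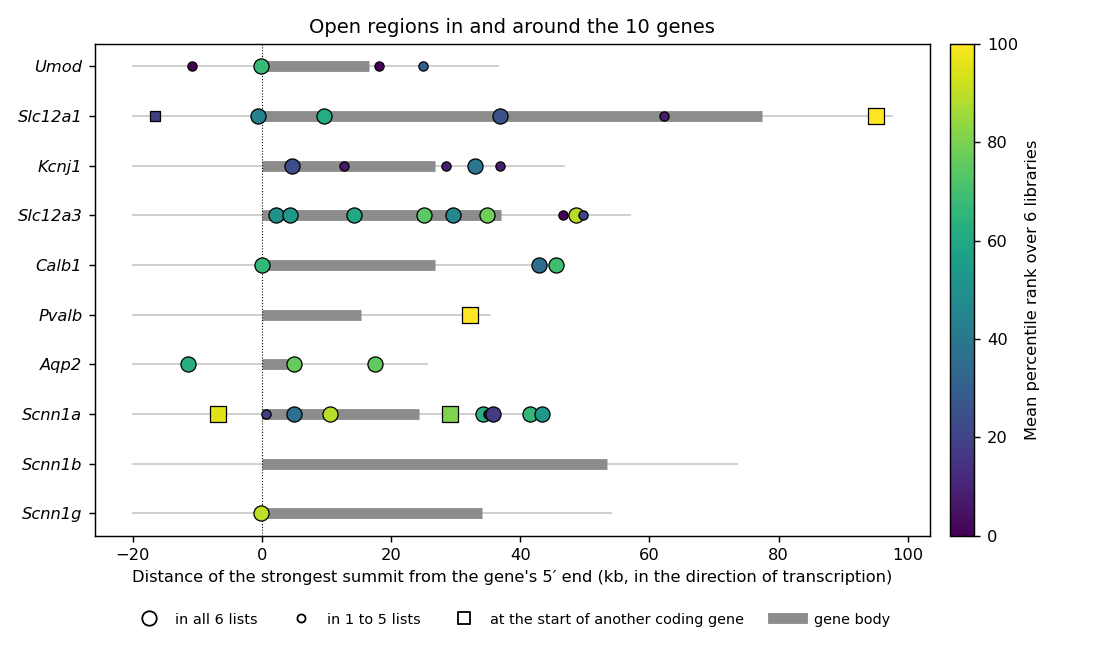
Open regions in and around the 10 genes, each point at the distance of its strongest summit from the gene's 5′ end in kb, in the direction of transcription, coloured by mean percentile rank over 6 libraries. Large points are in all 6 lists, small points in 1 to 5, squares lie at the start of another coding gene and grey bars are gene bodies; Slc12a3 carries 6 large points inside its body and none at its start, while Scnn1b carries no point.

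Away from the promoters, the 42 regions divided into 13 in gene bodies, 16 in downstream flanks, 2 in upstream flanks and 5 at the starts of neighbouring coding genes (Ctxn2, Dut, Ift27, Ltbr and Tnfrsf1a), beside the 6 member promoters. Of the 42, 30 (71.4%) were in all 6 lists, against 53.4% of all merged regions. The number of these regions in a list was 34 in each Sham library and 37, 34 and 36 in UNx 1, UNx 2 and UNx 3. The 34 regions in at least 3 lists were tested, and their median width was 826 bp against 634 bp over all 74774 tested regions.

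Slc12a3, the gene of the thiazide-sensitive sodium-chloride cotransporter NCC, had a closed promoter and the largest number of open regions inside the gene of the 10. No region lay within 1 kb of a start in any list, also among all deposited peaks, but 6 regions lay inside the gene and each was in all 6 lists. Their summits were 2201, 4356, 14223, 25074, 29604 and 34875 bp from the 5′ end, and their mean percentiles over 6 libraries were 50.01, 54.3, 59.5, 74.3, 46.3 and 77.8. Of the 8031 coding genes with a closed promoter, 66 (0.822%) had 6 or more such body regions. Among the 1767 of these whose length was within 2 times that of Slc12a3, 7 (0.396%) did, and 1260 (71.3%) had 0. With a promoter window of 2.5 kb in place of 1 kb, the first of the 6 regions becomes the promoter region and Slc12a3 counts as open.

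The strongest body region of Slc12a3, chr8:94363213-94364544 in an intron, ranked at 80.7, 79.1 and 73.5 in Sham and at 73.4, 75.0 and 84.8 in UNx. The groups overlapped and the difference was −0.01 with SE 4.39 (limma, adjusted p = 0.999). The region 29604 bp from the 5′ end, in exon sequence annotated as untranslated, ranked at 52.1, 53.7 and 52.6 in Sham and at 42.8, 41.3 and 35.6 in UNx. All UNx libraries were below all Sham libraries there, by −12.8 in the means (SE 8.22, limma adjusted p = 0.419).

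Downstream of Slc12a3, at chr8:94377454-94378537, a strong region ranked at 83.2, 88.8 and 86.1 in Sham and at 95.2, 97.5 and 86.4 in UNx. The difference of 7.0 (SE 2.72) did not pass the test, and UNx 3 lay within the Sham range (limma, adjusted p = 0.180). The next region, chr8:94378724-94378976, was at 0, 0 and 21.1 in Sham and at 34.6, 21.5 and 41.1 in UNx. Every UNx library was above every Sham library, the lowest by a narrow margin, and the difference of 25.4 (SE 10.9) did not pass the test (limma, adjusted p = 0.219). Both lie within 1 kb of an annotated start of the noncoding gene Gm15889.

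Kcnj1 held the 2 largest differences of all tested member regions, in opposite directions. The intron region, chr9:32376614-32377792, 4640 bp from the 5′ end, ranked at 8.11, 3.30 and 12.7 in Sham and at 45.7, 34.3 and 37.6 in UNx. The lowest UNx library was well above the highest Sham library. The difference of 31.1 (SE 10.5) did not pass the test (limma, unadjusted p = 0.00824, adjusted p = 0.131). The deposited −log10 q, from which the rank is made, was 7.66, 2.35 and 8.83 in Sham and 17.4, 20.3 and 27.5 in UNx. It also follows the strength of each list, so it gives no separate support for the difference. The interval was wider in every UNx library, at 737, 1179 and 1094 bp against 600, 356 and 416 bp. These widths come from the same peak calls, so they give no separate support either.

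The downstream region, chr9:32405197-32405619, 32982 bp from the 5′ end, ranked at 49.8, 60.0 and 53.6 in Sham and at 2.73, 34.2 and 31.7 in UNx. All UNx libraries were below all Sham libraries, UNx 1 by the widest margin. The difference of −31.6 (SE 10.4) did not pass the test (limma, unadjusted p = 0.00712, adjusted p = 0.124). In the deposited lists the −log10 q was 25.8, 16.5 and 29.4 in Sham and 5.18, 20.2 and 22.4 in UNx. On that scale, which also follows the strength of each list, the groups overlap. This region holds the CTCF core string at 2 places within 100 bases of its summit, as CCACCAGGAGG and CCAGCAGGTGG in the printed sequence. The string, chosen after the values were seen and searched on both strands, was in 4 of the 34 tested member regions (11.8%) and in 11146 of the 74774 tested regions (14.9%). Over those 11146, the median UNx minus Sham difference was −5.41, with 7766 lower and 3380 higher, against −0.01 over all tested regions.

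The other 3 member regions with that string lie in an intron of Slc12a1, in an exon of Slc12a3 and downstream of Aqp2. The Slc12a1 intron region, 36892 bp from the 5′ end, ranked at 33.9, 32.3 and 36.3 in Sham and at 0.896, 46.5 and 2.17 in UNx. UNx 1 and UNx 3 were far below the Sham range and UNx 2 above it (difference −17.6, limma adjusted p = 0.471). The Slc12a3 exon region, 4356 bp from the 5′ end, ranked at 58.9, 43.5 and 58.4 in Sham and at 61.4, 47.0 and 56.6 in UNx, so the groups overlapped, with a difference of 1.39 (limma, adjusted p = 0.948).

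The strongest intron region of Slc12a1, 9578 bp from the 5′ end, stood at 58.1, 65.1 and 61.0 in Sham and at 59.1, 70.7 and 55.1 in UNx, and its groups overlapped with a difference of 0.22 (limma, adjusted p = 0.991). In the downstream flank of Slc12a1 lies the promoter of Dut, a nucleotide metabolism gene, which was among the strongest peaks of every list and ranked first in UNx 1 and UNx 2.

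Aqp2, the vasopressin-regulated water channel gene of principal cells, had a closed promoter and 3 regions elsewhere, all in 6 lists. The one inside the gene, chr15:99583502-99584336 in an exon, ranked at 86.3, 62.7 and 81.0 in Sham and at 85.3, 81.9 and 61.3 in UNx. The spread within each group, 12.4 and 13 (SD), was far larger than the difference of −0.46 (limma, adjusted p = 0.981). The region 11515 bp upstream ranked at 64.1, 69.6 and 47.8 in Sham and at 56.2, 69.7 and 67.9 in UNx. The region downstream, chr15:99595997-99596741, ranked at 77.5, 71.0 and 87.6 in Sham and at 82.5, 68.6 and 67.4 in UNx (difference −5.85, limma adjusted p = 0.591). The groups overlapped at all 3 regions of Aqp2.

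Pvalb, the gene of the calcium-binding protein parvalbumin of the early distal convoluted tubule, had a closed promoter and no region of its own. The only region in its flanks was the promoter of Ift27, a cilium transport gene, at 99.6 to 100 in Sham and 99.3 to 99.9 in UNx. Of the 2 Pvalb promoters in the RefSeq table, one holds 67.7% G and C with 25 CpG dinucleotides and the other 58.3% with 5. The other closed promoters hold 4 (Slc12a3), 8 (Aqp2) and 10 (Scnn1b) CpG dinucleotides.

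Scnn1a had the most regions, 10, and 2 of them lie at the starts of its neighbours Ltbr and Tnfrsf1a, receptor genes of the tumour necrosis factor family. Its strongest body region, chr6:125330607-125331342 in an exon, ranked at 88.6, 93.5 and 87.3 in Sham and at 88.8, 85.2 and 92.2 in UNx. The groups overlapped with a difference of −1.09 (limma, adjusted p = 0.859). A region at chr6:125361563-125362358, in exon sequence of Tnfrsf1a annotated as untranslated, ranked at 71.8, 47.3 and 52.8 in Sham and at 71.1, 76.1 and 77.5 in UNx. Sham 1 was within the UNx range, and the difference of 17.6 (SE 6.59) did not pass the test (limma, adjusted p = 0.164). One downstream region, in an intron of Plekhg6, holds the ESRR string TCAAGGTCA, which is in 0.507% of tested regions.

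Calb1 had 2 downstream regions, both inside introns of Decr1, a gene of fatty acid oxidation. The nearer one, chr4:15923744-15924400, ranked at 38.3, 20.1 and 30.3 in Sham and at 39.2, 41.8 and 44.5 in UNx. All UNx libraries were above all Sham libraries, the lowest by under 1 percentile, and the difference of 12.2 (SE 9.89) did not pass the test (limma, adjusted p = 0.538). It holds the HNF4 string CAAAGTCCA, which 2.41% of tested regions hold. The farther one stood at 71.9, 61.4 and 66.5 in Sham and at 68.0, 68.8 and 79.0 in UNx, with overlap.

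**Figure D3:**
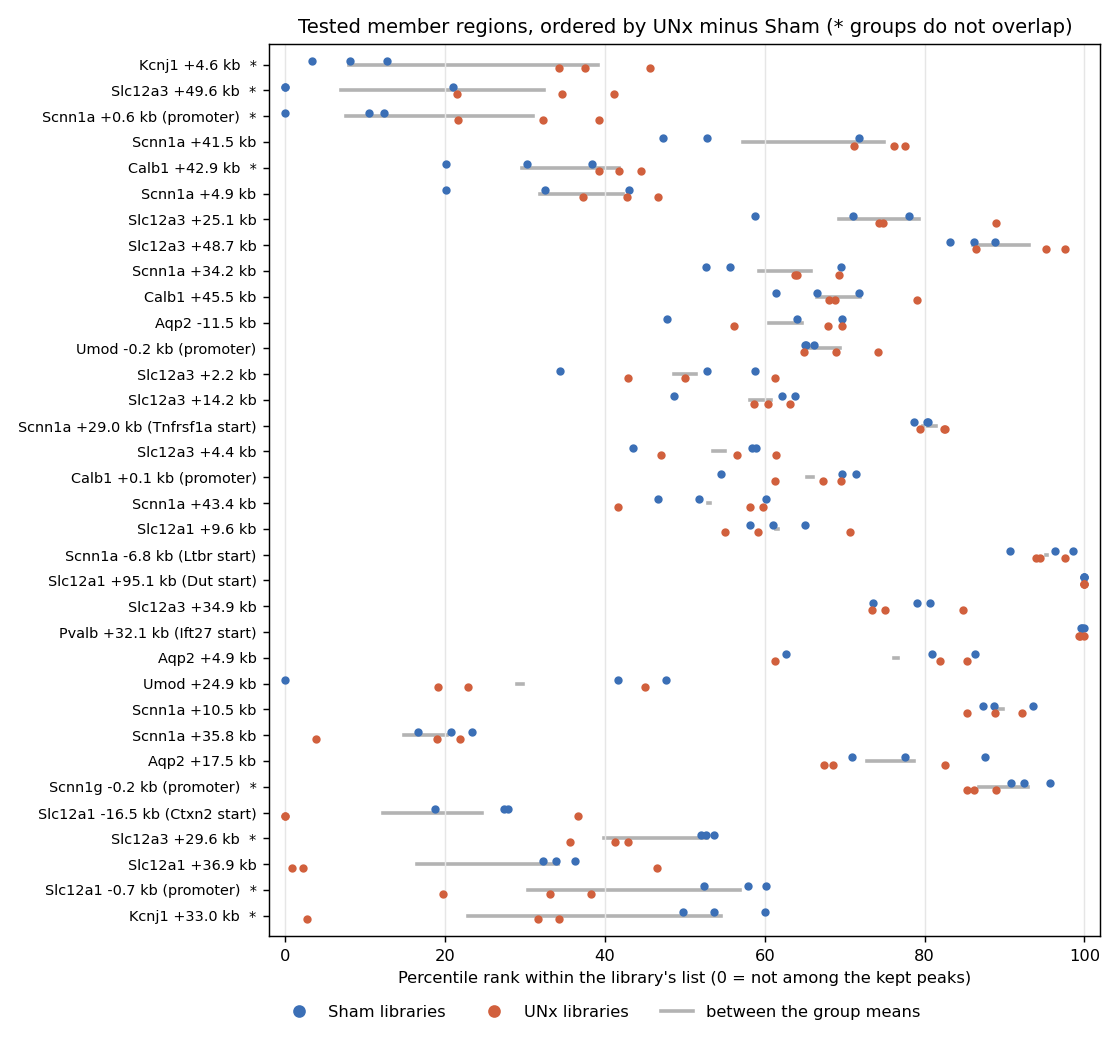
Percentile rank (horizontal axis, 0 for a region not among the kept peaks) of the 34 tested member regions in each library, Sham and UNx points on 1 line per region, ordered by UNx minus Sham; a grey bar joins the group means and a star marks groups that do not overlap. The intron region of Kcnj1 is at one end, the downstream region of Kcnj1 and the Slc12a1 promoter are at the other, and most lines in between overlap.

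Across the operations, none of the 34 tested member regions passed the threshold of an adjusted p of 0.05 (limma), against 0.808% of all 74774 tested regions (604 regions; 0.444% higher and 0.364% lower in UNx). Member regions with an unadjusted limma p under 0.05 numbered 8 (23.5%), against 18.6% of all tested regions. The groups did not overlap in 8 (23.5%), against 23.7% of all tested regions, so the share of separated member regions was near the background. Of these, 4 were wholly above Sham in UNx (12.0% of all tested regions were), namely the Kcnj1 intron, the Scnn1a promoter, the second region downstream of Slc12a3 and the nearer Calb1 flank region. The 4 wholly below (11.7% of all) were the Slc12a1 promoter, the Scnn1g promoter, the Kcnj1 downstream region and the region of Slc12a3 annotated as untranslated. By sign, 21 tested member regions were higher in UNx and 13 lower, with a median difference of 0.59 against −0.01 over all tested regions.

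Other genes of the same segments were read from a list of 68. The promoter was open for 36 (52.9%), intermittent for 14 and closed for 18 (26.5%). Over all protein-coding genes, 57.2% were open and 36.6% closed. By segment, 5 of 18 thick limb genes, 9 of 12 distal convoluted tubule genes, 11 of 15 principal cell genes, 4 of 13 intercalated cell genes and 7 of 10 shared transcription factors were open. The closed genes included Casr, the calcium-sensing receptor, Avpr2, the vasopressin receptor, and Foxi1, the intercalated cell regulator. In the distal convoluted tubule list the open genes included Wnk1 and Stk39, kinase genes that many tissues use, as well as Emx1, Trpv5 and Sall3. Klhl3 and Trpm6 were intermittent in that list, and Slc8a1 closed. In the principal cell list the open genes included Nedd4l, Sgk1 and Krt8 as well as Aqp3 and Fxyd4. Ehf and Elf5 were intermittent there, and Avpr2 and Gata3 closed.

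**Figure D4:**
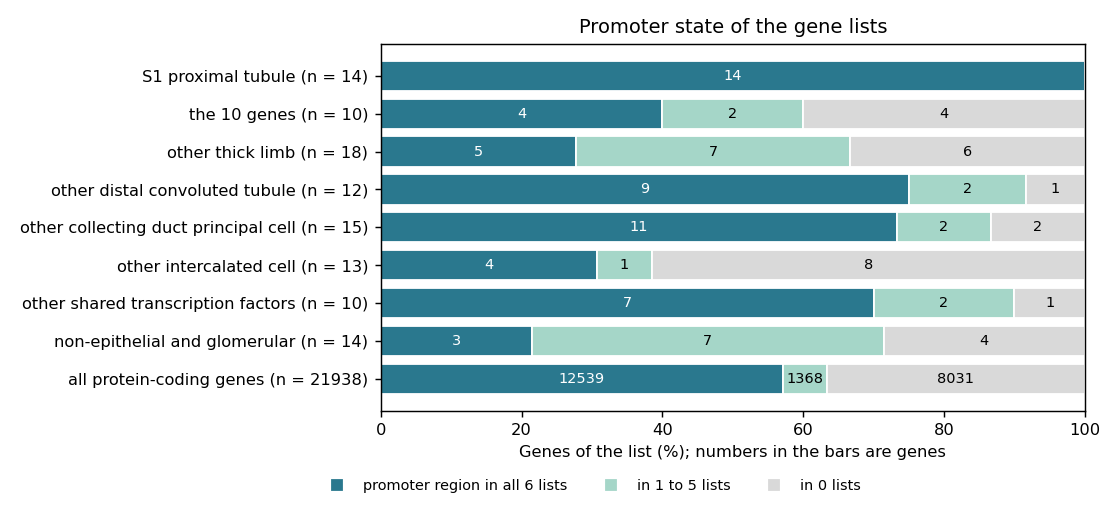
Share of genes in each list (horizontal axis, %) whose promoter region was in all 6 lists, in 1 to 5 lists or in 0 lists, with the number of genes written in each bar. All 14 S1 markers are open, the 10 genes divide into 4, 2 and 4, and 5 of 18 other thick limb genes and 4 of 13 intercalated cell genes are open.

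In that list, 42 promoters were tested, 27 were higher in UNx and 15 lower, and the median difference was 1.41 against −0.19 over all 13329 tested coding promoters. None passed the threshold (limma), against 0.383% of tested coding promoters. Of the 42, 7 had an unadjusted limma p under 0.05, against 13.2% of tested coding promoters. The groups did not overlap in 9 of the 42, a share near the 19.9% of coding promoters. Of these 9, 5 were wholly above Sham (9.29% of coding promoters were) and 4 wholly below (10.7%). The largest positive differences were those of Klhl3, an adaptor in the degradation of WNK kinases (15.8 in Sham, 43.9 in UNx, limma adjusted p = 0.177), the thick limb transcription factor gene Irx2 (25.7 and 48.3, limma adjusted p = 0.260) and the basolateral water channel gene Aqp4 (21.9 and 41.7, limma adjusted p = 0.360). The largest negative ones were those of Enox1 (15.6 and 0, limma adjusted p = 0.297), the calcium channel gene Trpv5 (48.8 and 35.6, limma adjusted p = 0.535) and Gata2, a principal cell transcription factor (58.5 and 48.8, limma adjusted p = 0.568).

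Over whole lists, the mean promoter percentile of the 18 other thick limb genes was 18.1 to 21.2 in Sham and 21.3 to 21.9 in UNx. That of the 15 principal cell genes was 53.7 to 55.7 in Sham and 57.6 to 60.3 in UNx, and that of the 13 intercalated cell genes was 24.1 to 25.5 and 24.7 to 26.4. The means of the 12 distal convoluted tubule genes were 57.9 to 60.2 in Sham and 59.8 to 64.4 in UNx, and those of the 10 shared transcription factors 46.2 to 54.6 and 49.5 to 53.9. The groups overlapped in the last 3 of these lists. In the other 2 they did not, for the thick limb by a narrow margin. Irx2 (25.7 in Sham, 48.3 in UNx) had the largest difference among the 18 thick limb genes. Of 8 tested thick limb promoters, 0 were wholly above Sham and 2 wholly below, and of 12 tested principal cell promoters 2 and 1. The means of the 14 podocyte, endothelial, stromal and immune markers also did not overlap, but were lower in UNx. How often the means of other gene lists separate was not examined. No test was made of these means. The part of other tubule segments among the dissected pieces in these values was not tested.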

How the data were processed

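Peaks of 6 ATAC-seq libraries (3 Sham, 3 UNx) were taken as deposited, 1 list per library, so replicates were not pooled. The submitters' processing notes name cutadapt 3.4, Bowtie, SAMtools, Picard, MACS2 2.2.7.1 and mm10, without settings. The lists are called filtered, and the filter is not given in the sources used here. Deposited with each summit are its position, its −log10 p and −log10 q, its ratio of signal to the caller's background (fold enrichment) and a display score. No interval ran past a GRCm38 chromosome end. The authors' values served only to rank or describe peaks within a list.

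A peak was a distinct interval with its strongest summit. Each list was cut to the 77355 strongest by −log10 q. Merging intervals with an overlap of 1 bp or more gave 99340 regions, each with the percentile rank of its best peak in every list. Regions in at least 3 lists were compared with limma 3.58.1 in R 4.3.3, two-sided, with robust variance and a trend. The p-values were adjusted by Benjamini-Hochberg over all 74774 tested regions, with a threshold of 0.05. The step was also run on values simulated from a normal distribution around each region's mean. Those values were not held to the percentile scale and did not copy regions absent from a list, so that run cannot show how the test behaves on such ranks. Genes and starts came from the GENCODE M21 basic annotation of GRCm38, sequences from GRCm38 and the RefSeq table. The depth of the libraries is unknown.

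The genes, lists, rules and tests were chosen with earlier results of these data known, so nothing here is independent support for a pattern already seen in them. The text names, for each gene, the promoter region, the strongest region of the gene body and the region of smallest unadjusted p. It also names the 3 promoters most like the open member of largest difference, and the 3 largest differences in each direction in the list of 68 genes. Regions further described, the HNF1 core string and the CTCF core string were chosen after their values were seen. Whether libraries with the same replicate number were paired is not given in the sources used here, and the main fit used no pairing. The correlations of same-numbered deviations from the group means were 0.00825, −0.0997 and −0.0493, which cannot show how the libraries were made. Alternatives were all deposited peaks, the 20000 strongest, ranking by fold, a −log10 q of at least 5, summit windows, other flanks and promoter windows, normal scores, GC-corrected ranks, no filter, a plain variance model, a replicate block, and leaving out each library.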

Additional observations from a re-analysis of the deposited data

How the results depend on the processing

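None of the member regions passed the threshold under any alternative run (limma). The number of regions past the threshold over all tested regions, 604, depended on the processing: 22 with all deposited peaks, 2 with the 20000 strongest, 3 when ranked by fold enrichment, 1555 with normal scores, 2 with GC-corrected ranks, 2 when every region was tested, however few its lists, and 31 to 368 when 1 library, whichever of the 6, was left out. With the replicate number as a block it was 56, and 0 when GC-corrected ranks were used with that block; the block changed no call of a member region. The 42 member regions became 14 among the 20000 strongest peaks, 22 with a flank of 5 kb and 92 with a flank of 50 kb. Of the 4 open promoters, 1 (Scnn1g) was in all 6 lists of the 20000 strongest peaks; with all deposited peaks and when ranked by fold Scnn1a was open as well, and with a −log10 q of at least 5 Slc12a1 was in 5 lists.

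Over 16 named regions and 268 alternatives, 245 kept the direction and 23 reversed it, in 6 regions whose groups overlapped. The Slc12a3 body region had a difference of 1.42 with all deposited peaks, 0.12 with the 20000 strongest and 0.0096 with normal scores, and −3.54 to 2.16 when 1 library was left out. The Calb1 promoter had −0.45 with GC-corrected ranks, with and without the replicate block, and −4.51 to 3.94 when 1 library was left out. The Aqp2 body region had 2.30 with all deposited peaks, 0.025 with the 20000 strongest and 6.14 when ranked by fold, and −7.44 to 6.995 when 1 library was left out, and the downstream region of Aqp2 had 1.27 when ranked by fold. The Scnn1a body region had 0.66 when ranked by fold and −2.81 to 0.77 when 1 library was left out, and the Slc12a1 body region −4.30 to 3.50. The cause of these reversals was not tested.

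Across its alternatives on the percentile scale, the difference of the Slc12a1 promoter was −33.0 to −17.6 (limma, adjusted p = 0.104 to 0.334), that of the Kcnj1 intron region 24.1 to 36.1 (limma, adjusted p = 0.0551 to 0.274), that of the Kcnj1 downstream region −37.3 to −21.5 (limma, adjusted p = 0.105 to 0.312), that of the Scnn1a promoter 13.96 to 28.1 (limma, adjusted p = 0.138 to 0.494) and that of the Scnn1g promoter −23.8 to −0.78 (limma, adjusted p = 0.140 to 0.866). The depth of the libraries is unknown, so a region at 0 may lie below what a list could show. Groups of 3 are too small for a test of outlying libraries.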
